A study of Mus musculus with 13 samples.

Results

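The 31 genes described here encode the semaphorins of classes 3 to 7 (20 genes), their plexin receptors (9 genes) and the neuropilins Nrp1 and Nrp2. They were chosen by symbol from the 19937 mouse genes that the platform table names on a whole-transcript Affymetrix array, and all 31 were measured. Each gene is represented by 1 probe set except Sema4d, which has 2, of which the brighter was used. The series holds 13 arrays in 6 groups. Melanocytes sorted by flow cytometry make up 6 arrays: a pair of Cdkn2a/Braf at day 19, while still growing, a pair of Cdkn2a/Braf at day 50, once arrested, and a pair of Cdkn2a only at day 19, whose Braf is wild type. The other 7 are tissue that was never cultured, with 2 of Cdkn2a/Braf melanoma, 2 of melanoma that also carries the Lkb1 allele (Cdkn2a/Braf/Lkb1) and 3 of Lkb1/Braf melanocytic proliferations, each pooled. Cdkn2a is a tumour suppressor locus, the Braf allele is named BrafV600E in the series title, and Lkb1 is the kinase encoded by Stk11. The labels of the 3 sorted groups and of both melanomas share the Cdkn2a genotype, whereas those of the proliferations do not. Lesion type and Cdkn2a genotype can therefore not be told apart where melanomas are compared with proliferations. The Cdkn2a/Braf melanomas also lack the Lkb1 allele of the proliferations. Ages of the tissue samples, the promoter that drives recombination, strains and sexes are not given in the sources used here. Arrays of a group are biological replicates by their labels. The title names mTORC1 activation, Braf-induced growth arrest and melanoma formation as the subjects of the study.

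Semaphorins are secreted or membrane-bound guidance cues first known for steering growing axons. Class 3 semaphorins are secreted and mostly bind a neuropilin, which holds the ligand while a plexin of the A family signals through its cytoplasmic GTPase-activating domain. Most membrane-bound semaphorins bind a plexin directly, and Sema7a, anchored by a lipid, binds plexin C1 and beta-1 integrins. Neuropilins also bind VEGF family ligands beside the VEGF receptors. In human melanocytes SEMA7A and plexin C1 are known for effects on adhesion and dendrite shape, and neural crest cells, the embryonic source of melanocytes, are steered by class 3 semaphorins.

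Promoter windows from 250 bases before to 50 after the annotated start were taken from RefSeq on GRCm38.p6, which lists 37 windows for 26 of the 31 genes. Plxna4, Plxna1, Sema3b, Sema3f and Sema6a are named only. The windows below belong to 2 genes that were high in sorted day 19 melanocytes (Sema6d and Plxnc1) and 2 that were high in melanoma (Nrp2 and Sema7a), and they are shown because these genes carry the differences described further on. Capitals mark matches on either strand to the E-box CACGTG, its variant CATGTG (which reads CACATG on the other strand), the AP-1 letters TGANTCA or the CRE letters TGACGTCA, and sequences run 5′ to 3′.
Sema6d, chr2:124089719-124090018, plus strand: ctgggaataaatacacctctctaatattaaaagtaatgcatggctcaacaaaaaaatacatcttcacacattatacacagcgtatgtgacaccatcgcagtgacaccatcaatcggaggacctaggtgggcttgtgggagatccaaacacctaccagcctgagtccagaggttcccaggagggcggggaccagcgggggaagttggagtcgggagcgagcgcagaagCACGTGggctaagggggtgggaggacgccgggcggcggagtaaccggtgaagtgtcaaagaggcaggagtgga
Plxnc1, chr10:94944796-94945095, minus strand: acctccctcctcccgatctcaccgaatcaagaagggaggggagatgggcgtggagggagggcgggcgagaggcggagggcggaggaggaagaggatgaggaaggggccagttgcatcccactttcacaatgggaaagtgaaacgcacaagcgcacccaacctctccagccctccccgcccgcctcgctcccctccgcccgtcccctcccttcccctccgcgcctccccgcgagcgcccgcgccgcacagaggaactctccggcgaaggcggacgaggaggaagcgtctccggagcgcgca
Nrp2, chr1:62703067-62703366, plus strand: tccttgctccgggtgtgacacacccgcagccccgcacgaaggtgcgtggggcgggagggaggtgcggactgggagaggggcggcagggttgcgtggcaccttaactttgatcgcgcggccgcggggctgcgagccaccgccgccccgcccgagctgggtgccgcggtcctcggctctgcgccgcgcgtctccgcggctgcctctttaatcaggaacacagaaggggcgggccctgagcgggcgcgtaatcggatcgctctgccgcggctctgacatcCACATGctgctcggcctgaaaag
Sema7a, chr9:57939862-57940161, plus strand: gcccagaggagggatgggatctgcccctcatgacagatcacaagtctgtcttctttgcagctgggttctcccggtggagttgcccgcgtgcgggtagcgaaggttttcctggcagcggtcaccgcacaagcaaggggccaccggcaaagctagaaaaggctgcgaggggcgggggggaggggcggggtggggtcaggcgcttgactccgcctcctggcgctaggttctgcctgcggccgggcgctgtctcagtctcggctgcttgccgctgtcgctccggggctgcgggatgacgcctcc
The Sema6d window has CACGTG starting at position -23 from the annotated start, letters found in 7.15% of the 32851 windows of this length in the table. A different annotated start of Sema6d, chr2:124653331-124653630, holds none of the 4 motifs. The Nrp2 window has CACATG from position 28 after the start, and CATGTG on either strand is found in 14.2% of all windows. TGANTCA occurs in 7.81% and TGACGTCA in 1.79% of all windows, and neither occurs in these 4. Among the 37 windows of the 31 genes, 3 hold CACGTG, 3 hold CATGTG, 3 hold TGANTCA and 0 hold TGACGTCA. The matches are letters in a window, and which start was used in these cells was not tested.

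Levels below are log2(intensity + 1) of RMA values, each difference between groups is given in the same log2 units beside its standard error (SE), and a call means an adjusted p under 0.05 from limma with Benjamini-Hochberg adjustment over all 19937 genes. The fit shares 1 spread over all 13 arrays, and with 2 or 3 arrays a group the number of arrays limits the precision. The day 50 replicates were further apart than those of any other group. The SD over genes of their difference was 0.703, against 0.271 to 0.404 elsewhere. A shared spread does not allow for this, so SEs may be too small for day 50 comparisons and too large for others. Array medians over genes lay between 6.31 and 6.57, so members near these levels are dim. Their differences may be understated, which was not tested. Of the 31 genes, 30 exceeded 6 on at least 2 arrays, and Sema4f exceeded it on 1. The interquartile range over genes was narrower on the day 50 and proliferation arrays (1.93 to 2.11) than on the others (2.45 to 2.89). Xist, the transcript of the inactive X chromosome, was high (9.57 to 10.98) on the day 50 and proliferation arrays and low (4.42 to 4.76) on all 4 melanoma arrays. In each day 19 group it was high on 1 array and low on the other. Sex by Xist and sample group can therefore not be told apart where melanomas are compared with proliferations or with day 50 cells.

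The cell type labels were checked against marker lists, and the plot of marker lists shows each array. Sorted day 19 cells had a mean melanocyte list level (12 genes, among them Tyr, Dct and Mitf) of 11.37 to 11.68, and day 50 cells 9.39 and 10.03. The melanocyte list stood at 7.57 to 7.66 in the proliferations and at 5.64 to 6.26 in the melanomas, below the median gene of the same arrays. The tissue called melanoma therefore did not show melanocyte differentiation markers in these data. Endothelial markers were at 8.42 on day 50 replicate 1, 7.11 on day 50 replicate 2 and 6.12 to 6.22 on the day 19 arrays. The keratinocyte list was at 10.13 on day 50 replicate 1, 9.62 on replicate 2 and 7.23 to 8.02 on the day 19 arrays. On day 50 replicate 1 it exceeded the melanocyte list (9.39). Cdkn2a/Braf melanoma replicate 2 had a keratinocyte list level of 8.92, against 6.0 on replicate 1. In such bulk samples fewer cells of a type and less RNA per cell cannot be told apart.

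**Figure D1:**
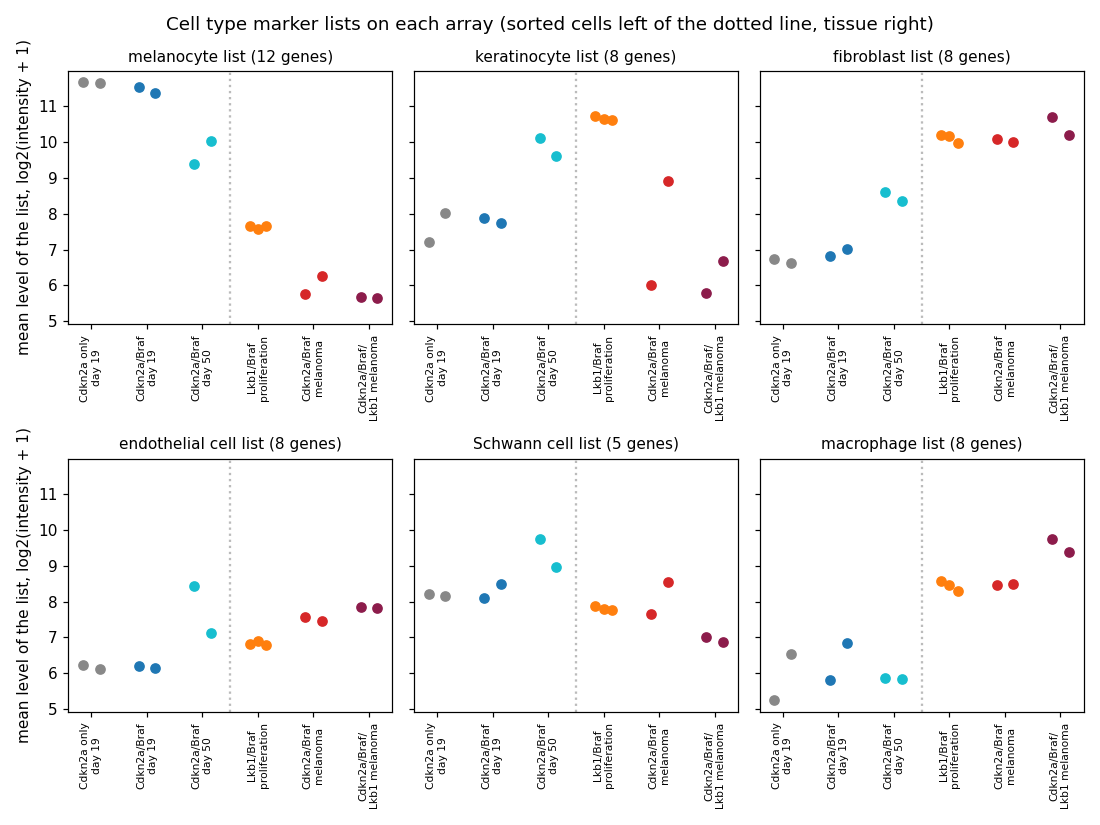
Mean level of each marker list (vertical axis, log2(intensity + 1)) on each of the 13 arrays, 1 point per array, by group. The melanocyte list lies between 11.37 and 11.68 in sorted day 19 cells and between 5.64 and 6.26 in the 4 melanoma arrays.

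**Figure D2:**
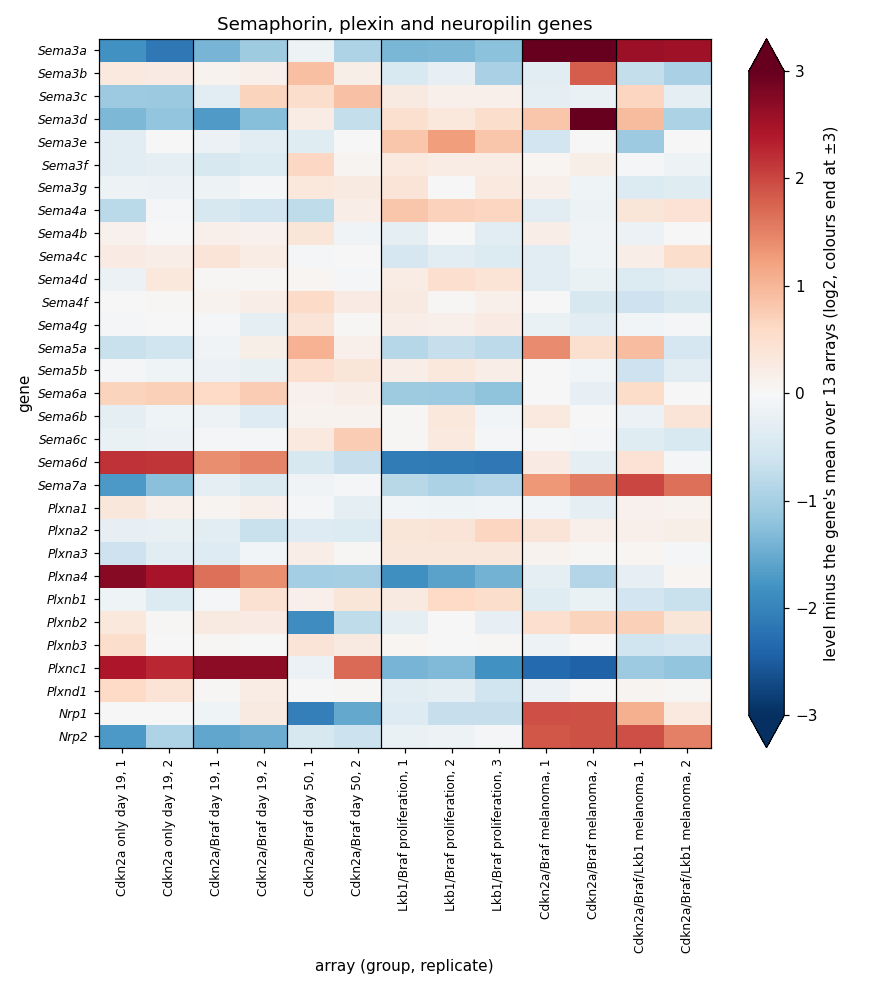
Level of each of the 31 genes on each array minus that gene's mean over the 13 arrays (colour, log2 scale), arrays in columns by group and replicate. Sema3a, Sema7a, Nrp1 and Nrp2 are red in the melanomas, while Sema6d, Plxna4 and Plxnc1 are red in the sorted day 19 cells.

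Among the secreted class 3 ligands Sema3a, which repels axons through Nrp1 and A-type plexins, had the widest range of the 31 genes across group means (5.17). It stood at 10.70 and 10.77 in Cdkn2a/Braf melanoma, 10.11 and 10.10 in Cdkn2a/Braf/Lkb1 melanoma, and 6.19, 6.19 and 6.31 in the proliferations. In sorted cells it was at 5.73 and 5.40 in Cdkn2a only, 6.15 and 6.49 in Cdkn2a/Braf at day 19, and 7.41 and 6.63 at day 50. All 4 melanoma arrays lay above the other 9, with no overlap. The melanomas exceeded the proliferations by 4.19 (SE 0.18, limma adjusted p = 6.75e-07), which is 18.2-fold on the log2(intensity + 1) scale. The Cdkn2a/Braf melanomas exceeded day 19 cells of the same labelled genotype by 4.41 (SE 0.23, limma adjusted p = 2.57e-06) and day 50 cells by 3.71 (SE 0.23, limma adjusted p = 9.73e-06).

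Sema3e, a ligand that binds plexin D1 without a neuropilin, went the other way in tissue. It stood at 7.17, 7.58 and 7.17 in the proliferations, 5.75 and 6.35 in Cdkn2a/Braf melanoma and 5.24 and 6.31 in Cdkn2a/Braf/Lkb1 melanoma. Sorted cells lay between 5.97 and 6.31. The melanomas were lower than the proliferations by -1.40 (SE 0.25, limma adjusted p = 0.00208), and the 3 proliferation arrays lay above every other array. The keratinocyte list was also lower in the melanomas, in 8 of 8 genes with a median of -3.70. So were the melanocyte list (9 of 12, median -1.40), the Schwann cell list (2 of 5, median -0.44) and the T cell list (2 of 6, median -0.22). The part of these lists in the Sema3e difference was not tested.

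The remaining class 3 genes were less consistent between arrays of a group. Sema3d, which has a role in neural crest cells of zebrafish, was at 10.82 on Cdkn2a/Braf melanoma replicate 2 and 7.82 on replicate 1. Its difference from day 19 cells of 3.81 (SE 0.83, limma adjusted p = 0.0128) was 2.31 without that replicate 2 and not called, and the call also ended without either day 19 array (3.61 and 4.02). Sema3b, a target of p53 in human cells, was likewise at 9.87 on replicate 2 and 7.72 on replicate 1, and none of the 6 comparisons called it. Sema3f, a ligand of Nrp2, was at 7.89 and 7.36 at day 50 and 6.79 and 6.87 at day 19. The day 50 arrays were higher by 0.79 (SE 0.16, limma adjusted p = 0.00756), a call that ended without day 19 replicate 1 (0.75), and the difference was 0.53 without day 50 replicate 1. Fitting the sorted arrays alone ended the call too (limma adjusted p = 0.0728). Sema3c was at 6.88 and 6.84 in Cdkn2a only cells and 7.62 and 8.62 in Cdkn2a/Braf day 19 cells. The difference of 1.26 (SE 0.33) between these groups was not called (limma adjusted p = 0.241). Sema3g, dim throughout at 6.06 to 6.84, differed by -0.41 (SE 0.11, limma adjusted p = 0.0175) between melanomas and proliferations, with overlapping arrays.

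Of the 6 class 4 genes, membrane-bound ligands that act mainly on B-type plexins and on immune cells, none was called at day 50 against day 19 or between the day 19 genotypes or the melanoma genotypes. The shares of all genes called there were 25.6%, 0.291% and 2.56%. Between melanomas and proliferations 1 of the 6 rose and 4 fell, where 39% of all genes were called. Sema4c, a ligand of plexin B2, was at 6.67 and 6.86 in Cdkn2a/Braf melanoma and 7.18 and 7.52 in Cdkn2a/Braf/Lkb1 melanoma. In the proliferations it was at 6.49, 6.66 and 6.59. The group means were 6.76, 7.35 and 6.58 in that order. With both melanoma genotypes averaged, the difference was 0.48 (SE 0.11, limma adjusted p = 0.00718). Sema4d, the ligand of plexin B1 and of CD72 on lymphoid cells, fell by 0.70 (SE 0.13, limma adjusted p = 0.00232). It lay between 6.21 and 6.42 on the melanoma arrays and between 6.85 and 7.12 in the proliferations, without overlap. The T cell list was lower in the melanomas in 2 of 6 genes, with a median of -0.22. The other lists named for Sema3e were lower too, and the part of each was not tested. Sema4a, Sema4f and Sema4g were lower in the melanomas by 0.35 to 0.64 and all lay at or below 7.30. Sema4b was not called in any of the 6 comparisons and stayed between 6.82 and 7.5 on all arrays.

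Sema6d, a transmembrane ligand of plexin A1, was highest in sorted melanocytes at day 19. It stood at 11.66 and 11.64 in Cdkn2a only cells, 10.89 and 10.98 in Cdkn2a/Braf cells at day 19 and 9.03 and 8.80 at day 50. In tissue it was at 9.74 and 9.21 in Cdkn2a/Braf melanoma, 9.94 and 9.47 in Cdkn2a/Braf/Lkb1 melanoma and 7.39, 7.37 and 7.35 in the proliferations. The 4 day 19 arrays lay above the other 9. From day 19 to day 50 Sema6d fell by 2.02 (SE 0.20, limma adjusted p = 0.000147), or by 1.22 with arrays scaled to a common interquartile range, still called. In tissue the melanomas exceeded the proliferations by 2.22 (SE 0.15, limma adjusted p = 9.95e-06). The melanocyte list was lower in the melanomas in 9 of 12 genes (median -1.40), and its part was not tested. Against day 19 cells of the same labelled genotype the Cdkn2a/Braf melanomas were lower by -1.46 (SE 0.20, limma adjusted p = 0.000707), beside a median of -5.50 for the melanocyte list.

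Sema6a, a ligand of plexins A2 and A4, followed a similar order with smaller differences. It was at 9.22 to 9.39 on the 4 day 19 arrays, 8.74 and 8.81 at day 50, 8.63, 8.37, 9.17 and 8.60 on the melanoma arrays and 7.55, 7.54 and 7.42 in the proliferations. The melanomas exceeded the proliferations by 1.19 (SE 0.14, limma adjusted p = 0.000174), without overlap. Between day 19 and day 50 it differed by -0.53 (SE 0.18, limma adjusted p = 0.0543), which did not pass, and the sign turned to 0.12 with a common interquartile range. Sema5a, a ligand with thrombospondin repeats, was at 7.37 and 7.44 in Cdkn2a only cells. In Cdkn2a/Braf cells it was at 7.94 and 8.22 at day 19 and 9.09 and 8.20 at day 50. In tissue it was at 9.47, 8.52, 8.96 and 7.53 on the melanoma arrays, which overlap the day 50 arrays, and 7.19, 7.35 and 7.26 in the proliferations. Its difference of 1.35 (SE 0.34) passed (limma adjusted p = 0.0116), with replicates far apart in both melanoma genotypes (SD 0.67 and 1.01, n = 2 each, against 0.08 in the 3 proliferations). Sema5b and Sema6c were dim and rose from day 19 to day 50 by 0.64 (SE 0.13, limma adjusted p = 0.00774) and 0.57 (SE 0.17, limma adjusted p = 0.0332). The Sema5b call ended without day 19 replicate 2 (0.61). The Sema6c call ended without either day 19 array or day 50 replicate 2, with values from 0.33 to 0.57, and under 3 other scalings.

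Sema7a, the lipid-anchored ligand of plexin C1 and of beta-1 integrins, was highest in the melanomas. It was also higher with the Braf allele at day 19, a call that ended under each other scaling. It stood at 6.52 and 7.0 in Cdkn2a only cells, 7.99 and 7.82 in Cdkn2a/Braf day 19 cells and 8.15 and 8.20 at day 50. In tissue it was at 9.55 and 9.81 in Cdkn2a/Braf melanoma, 10.26 and 9.90 in Cdkn2a/Braf/Lkb1 melanoma and 7.41, 7.30 and 7.36 in the proliferations. The 4 melanoma arrays lay above all others, and the Cdkn2a only arrays below all others. The melanomas exceeded the proliferations by 2.52 (SE 0.14, limma adjusted p = 3.14e-06), a 5.75-fold difference. The Cdkn2a/Braf melanomas exceeded day 19 cells by 1.78 (SE 0.18, limma adjusted p = 0.000129) and day 50 cells by 1.51 (SE 0.18, limma adjusted p = 0.000422). Day 50 and day 19 cells differed by 0.27, with a 95% interval from -0.13 to 0.68, which was not called.

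**Figure D3:**
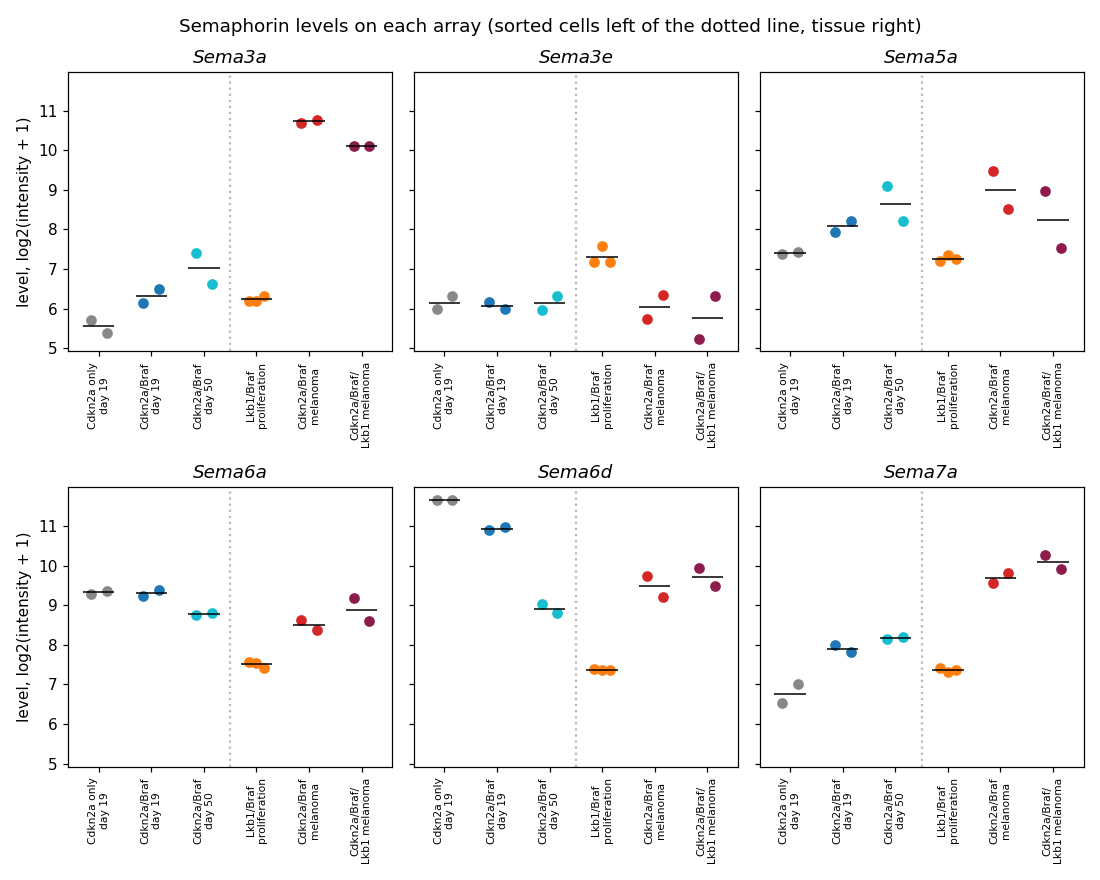
Levels (vertical axis, log2(intensity + 1)) of 6 semaphorin genes on each array, 1 point per array, with the group mean as a line. Sema3a and Sema7a are highest on the 4 melanoma arrays, Sema6d on the 4 sorted day 19 arrays and Sema3e on the 3 proliferation arrays.

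Plxnc1, the receptor of Sema7a, was high in sorted melanocytes and low in tissue. It stood at 10.88 and 10.86 in Cdkn2a/Braf day 19 cells, 10.62 and 10.45 in Cdkn2a only cells and 8.0 and 9.88 at day 50. In tissue it was at 5.86 and 5.75 in Cdkn2a/Braf melanoma, 7.09 and 7.01 in Cdkn2a/Braf/Lkb1 melanoma and 6.80, 6.87 and 6.38 in the proliferations. Every sorted array lay above every tissue array. The Cdkn2a/Braf melanomas were lower than day 19 cells by -5.07 (SE 0.45, limma adjusted p = 5.32e-05), beside a median of -5.50 for the melanocyte list, and lower than day 50 cells by -3.13 (SE 0.45, limma adjusted p = 0.00109). The fall from day 19 to day 50 was 1.93 on the log2 scale (-1.93, SE 0.45, limma adjusted p = 0.0135). It was -1.0 without day 50 replicate 1, whose melanocyte list level was also the lower of the pair, and the part of that list was not tested. The call ended without either day 19 array (-1.94 and -1.92), with quantile normalization (-1.49) and with a common interquartile range (-1.13). Fitting the sorted arrays alone ended it too (limma adjusted p = 0.0958). Between the melanoma genotypes the difference of 1.25 (SE 0.45) was not called (limma adjusted p = 0.165). At the same value it was called in the fit on the 7 tissue arrays (limma adjusted p = 0.0123) and without either day 50 array (limma adjusted p = 0.00402).

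Plxna4, a receptor of class 3 ligands with neuropilins and of class 6 ligands directly, was also highest in sorted day 19 cells. It was at 10.77 and 10.51 in Cdkn2a only cells, 9.68 and 9.43 in Cdkn2a/Braf day 19 cells and 7.02 and 7.04 at day 50. In tissue it was at 7.76 and 7.15 in Cdkn2a/Braf melanoma, 7.79 and 8.11 in Cdkn2a/Braf/Lkb1 melanoma and 6.20, 6.42 and 6.63 in the proliferations. The 3 sorted groups did not overlap, and the 4 day 19 arrays lay above the other 9. Plxna4 fell from day 19 to day 50 by 2.53 (SE 0.22, limma adjusted p = 8.87e-05). Between lesions, the melanomas exceeded the proliferations by 1.29 (SE 0.17, limma adjusted p = 0.000366). With the Braf allele at day 19 it differed by -1.08 (SE 0.22), which did not pass (limma adjusted p = 0.0962, 95% interval -1.58 to -0.59 before adjustment). Among the other A-type plexins, Plxna1 stayed between 8.18 and 8.78 on all 13 arrays and was not called in any comparison, nor was the X-linked Plxna3 (5.61 to 6.58). Plxna2 was higher in Cdkn2a/Braf melanoma than in day 19 cells by 0.77 (SE 0.15, limma adjusted p = 0.00777). Over day 50 cells the excess was 0.67 (SE 0.15, limma adjusted p = 0.0108). The first call ended without day 19 replicate 2 (0.60) and both ended without melanoma replicate 1 (0.65 and 0.56).

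Among the B-type plexins, receptors of class 4 ligands, Plxnb2 fell at day 50 and Plxnb1 was lower in melanomas than in proliferations. Plxnb2 was at 8.05 and 8.03 in Cdkn2a/Braf day 19 cells, 8.11 and 7.82 in Cdkn2a only cells, and 5.92 and 7.03 at day 50. On the tissue arrays it was at 8.29, 8.46, 8.51 and 8.16 in the melanomas and 7.52, 7.81 and 7.53 in the proliferations. The day 50 arrays lay below all others, with a difference from day 19 of -1.57 (SE 0.30, limma adjusted p = 0.00515) that was -1.01 without day 50 replicate 1. This call ended in the fit on sorted arrays alone (limma adjusted p = 0.0679). The 0.73 (SE 0.23, limma adjusted p = 0.0277) by which the melanomas exceeded the proliferations lost its call with a common interquartile range (0.47), with quantile normalization (0.34) and without 1 of 4 single tissue arrays. These were Cdkn2a/Braf melanoma replicate 2, Cdkn2a/Braf/Lkb1 melanoma replicate 1 and proliferation replicates 1 and 3 (0.65 to 0.69). On the sorted arrays Plxnb1 was at 6.70 and 6.41 in Cdkn2a only cells, 6.78 and 7.29 in Cdkn2a/Braf day 19 cells and 6.98 and 7.20 at day 50. It was at 6.16 to 6.64 on the melanoma arrays, which overlap the Cdkn2a only cells, and 7.10 to 7.42 in the proliferations, a difference of -0.91 (SE 0.15, limma adjusted p = 0.00109). The keratinocyte, melanocyte, Schwann cell and T cell lists moved the same way there, as for Sema3e, and their part was not tested. Plxnd1, the receptor of Sema3e and of endothelial guidance, exceeded the proliferations in the melanomas by 0.39 (SE 0.11, limma adjusted p = 0.0185). This call ended with a common interquartile range (0.20), with quantile normalization (0.06), and without Cdkn2a/Braf melanoma replicate 2 (0.30) or proliferation replicate 3 (0.35). Endothelial genes (5 of 8, median 0.61) and macrophage genes (4 of 8, median 0.90) rose there too, and their part was not tested. Plxnb3, X-linked and dim (5.21 to 6.33), was not called in any comparison.

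Nrp1, the co-receptor of Sema3a and of VEGF-A, fell in arrested cells and was highest in Cdkn2a/Braf melanoma. It was at 8.16 and 8.56 in Cdkn2a/Braf day 19 cells, 8.26 and 8.29 in Cdkn2a only cells and 6.23 and 6.76 at day 50. In tissue it was at 10.22 and 10.18 in Cdkn2a/Braf melanoma, 9.35 and 8.56 in Cdkn2a/Braf/Lkb1 melanoma and 7.90, 7.59 and 7.59 in the proliferations. The day 50 arrays lay below all others. From day 19 to day 50, 7 of 8 endothelial genes rose (median 1.66) and 8 of 12 melanocyte genes fell (median -1.22), and their part in the Nrp1 level was not tested. From day 19 to day 50 Nrp1 fell by 1.86 (SE 0.26, limma adjusted p = 0.00106). The melanomas exceeded the proliferations by 1.89 (SE 0.20, limma adjusted p = 0.000104), and Cdkn2a/Braf melanoma exceeded day 50 cells by 3.71 (SE 0.26, limma adjusted p = 2.03e-05), 13.1-fold. It was the only one of the 31 genes called between the melanoma genotypes, lower with Lkb1 loss by -1.24 (SE 0.26, limma adjusted p = 0.0382). That call ended without 10 of the 13 arrays taken singly, which were all arrays of day 19 cells, Cdkn2a/Braf melanoma and proliferations and Cdkn2a/Braf/Lkb1 melanoma replicate 2, with values from -1.26 to -0.85. It ended with quantile normalization as well (-1.35).

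Nrp2, the co-receptor of Sema3f and of VEGF-C, was high in both melanomas. It was at 10.11 and 10.16 in Cdkn2a/Braf melanoma, 10.18 and 9.75 in Cdkn2a/Braf/Lkb1 melanoma and 8.03, 8.09 and 8.18 in the proliferations. Sorted cells had 6.69 and 6.75 in Cdkn2a/Braf at day 19, 6.51 and 7.32 in Cdkn2a only and 7.77 and 7.60 at day 50. The 4 melanoma arrays lay above the proliferations, and these above every sorted array. Melanomas exceeded proliferations by 1.95 (SE 0.18, limma adjusted p = 4.4e-05), and the Cdkn2a/Braf melanomas exceeded day 19 cells by 3.41 (SE 0.23, limma adjusted p = 1.12e-05), 10.7-fold. Day 50 cells exceeded day 19 cells by 0.97 (SE 0.23, limma adjusted p = 0.0161), the opposite direction to Nrp1. The call ended without day 19 replicate 1 (0.94) or replicate 2 (0.99), and in the fit on sorted arrays alone (limma adjusted p = 0.0871).

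**Figure D4:**
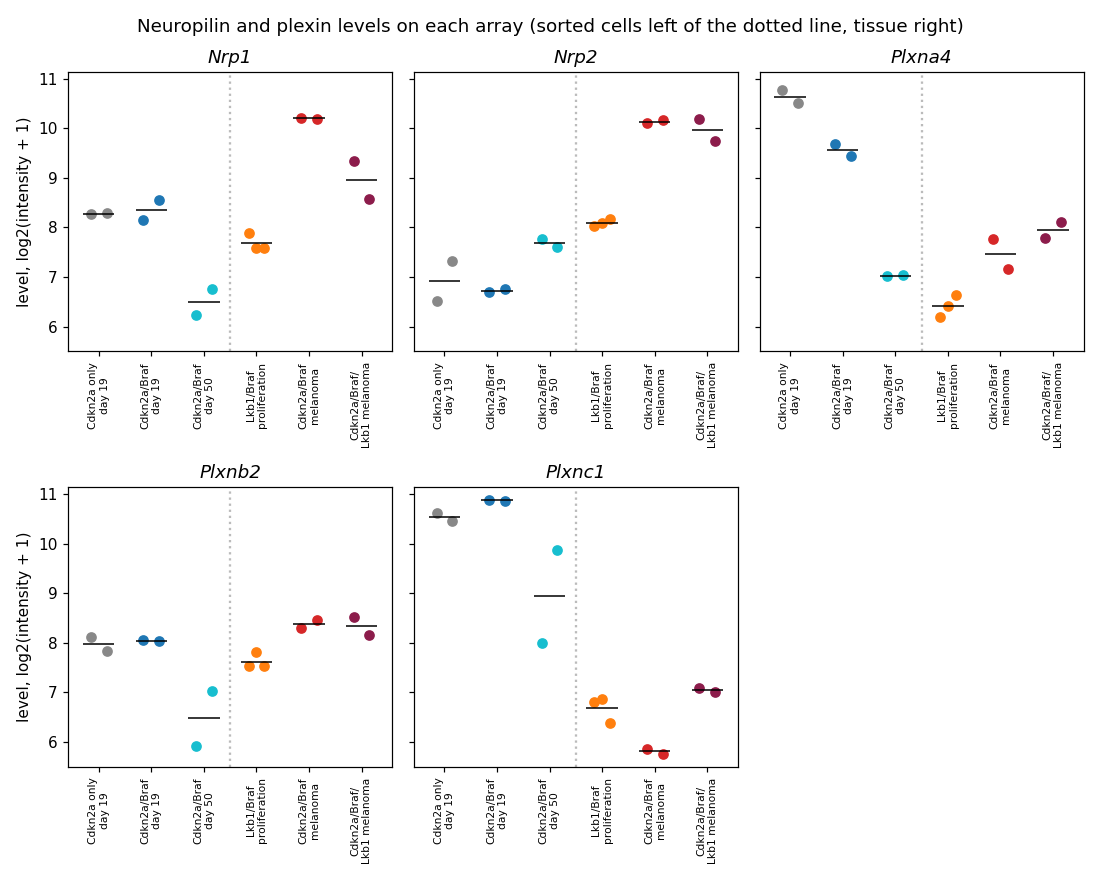
Levels (vertical axis, log2(intensity + 1)) of both neuropilins and 3 plexins on each array, 1 point per array, with the group mean as a line. Plxnc1 is higher on all 6 sorted arrays than on the 7 tissue arrays, and Nrp1 is lowest on the day 50 arrays.

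Between growing and growth-arrested Cdkn2a/Braf melanocytes, of the 31 genes 5 rose (Nrp2, Sema3f, Sema3a, Sema5b and Sema6c) and 5 fell (Plxna4, Sema6d, Plxnc1, Nrp1 and Plxnb2) from day 19 to day 50, against 25.6% of all genes called in this comparison (11.1% higher, 14.5% lower). The share of the 31 genes was 32.3%, with a median of 0.25 against 0.17 for all genes. Median centring of each array gave 3 that rose and 6 that fell. The 5 that fell did so by 1.57 to 2.53, and the 5 that rose by 0.57 to 0.97. The Sema3a increase of 0.70 (SE 0.23, limma adjusted p = 0.0497) was lost without any single array other than day 50 replicate 2, with values from 0.31 to 0.87. Fitted on the 6 sorted arrays alone, 4 of the 31 genes were called, which were Plxna4, Sema6d, Nrp1 and Sema5b. Keratinocyte markers (3 of 8, median 2.36) and endothelial markers (7 of 8, median 1.66) rose at day 50. Fibroblast markers (6 of 8, median 1.39, with 1 that fell) and Schwann cell markers (3 of 5, median 1.04) rose too. Of the melanocyte markers 8 of 12 fell (median -1.22), and the part of these lists in the differences was not tested.

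Partners of the pathway were called in this comparison at 24.6%, close to the 25.6% of all genes. Of 61 measured genes for VEGF ligands and receptors, surface partners, plexin effectors, collapsin response mediators and proteases that cut semaphorins, 5 rose and 10 fell. Among 30 plexin effectors 7 fell and 1 rose, with Cdk5, a kinase of the Sema3a response, lower by -2.12 (SE 0.19, limma adjusted p = 0.000101). Met, a receptor that associates with B-type plexins, was lower by -2.89 (SE 0.71, limma adjusted p = 0.0176), or -1.80 and not called without day 50 replicate 1, and the call also ended without either day 19 array (-2.98 and -2.79). Of 8 VEGF genes 3 rose and 1 fell. Vegfc was lower by -1.89 (SE 0.37, limma adjusted p = 0.00637), a call lost without day 19 replicate 2 (-1.61). Kdr, an endothelial VEGF receptor, was higher by 1.95 (SE 0.61, limma adjusted p = 0.0423) but by 0.73 without day 50 replicate 1. That array had the highest endothelial list level (8.42), and its part in the Kdr difference was not tested. The Kdr call ended without 10 single arrays, all but day 50 replicate 2 and the Cdkn2a/Braf/Lkb1 pair, with values from 0.73 to 2.21. In the fit on sorted arrays alone the Met, Vegfc and Kdr calls all ended. None of the 5 collapsin response mediator genes was called by limma (0 with an unadjusted p under 0.05, beside 8659 of all 19937 genes).

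**Figure D5:**
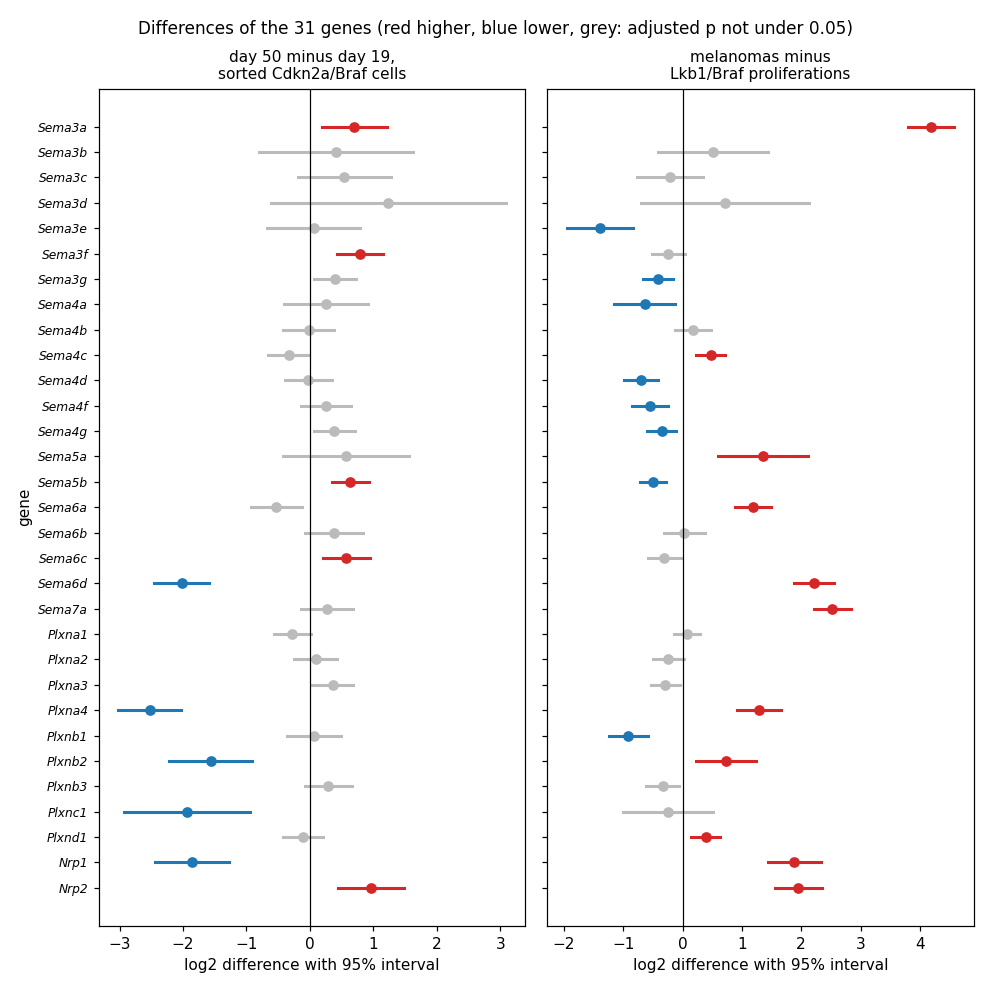
Log2 difference with its 95% interval (horizontal axis) for the 31 genes, for day 50 minus day 19 sorted cells on the left and for melanomas minus proliferations on the right. Plxna4, Sema6d and Nrp1 are lower at day 50 on the left and higher in the melanomas on the right.

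The Braf allele at day 19 went with higher Sema7a and with no other called member. Sema7a rose by 1.14 (SE 0.18, limma adjusted p = 0.0386), 2.20-fold, higher in 2 of 2 Cdkn2a/Braf arrays than in both Cdkn2a only arrays. In this comparison 0.291% of all genes (0.236% higher, 0.0552% lower) and 1 of the 31 genes (3.23%) were called. An unadjusted limma p under 0.05 was found for 7 of the 31, beside 1446 of all 19937 genes. The call ended without Cdkn2a only replicate 1, either Cdkn2a/Braf day 19 array or any of the 3 proliferation arrays, with values from 0.90 to 1.22. It also ended under median centring (1.07), quantile normalization (0.91) and a common interquartile range (0.98), and in the fit on the 6 sorted arrays. The intensity trend with robust moderation and the replicate block ended it as well. Sema6d differed by -0.72 (SE 0.20, limma adjusted p = 0.279) and Sema3a by 0.76 (SE 0.23, limma adjusted p = 0.368), and neither was called. Of the 61 partner genes limma called 0, and 5 had an unadjusted p under 0.05, beside the same 1446 of all 19937 genes. None of the marker lists had a called gene in this comparison.

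Lkb1 loss in Cdkn2a/Braf melanoma went with lower Nrp1 and with 0 called semaphorins or plexins (7 semaphorins and 4 plexins had an unadjusted p under 0.05 by limma). Such an unadjusted p was found for 12 of the 31 genes, beside 3820 of all 19937 genes. In this comparison 2.56% of all genes (1.83% higher, 0.732% lower) and 1 of the 31 genes (3.23%) were called. Sema4c differed by 0.59 (SE 0.14, limma adjusted p = 0.0628), and it was called with a pseudocount of 16 (0.53), without either day 50 array (0.59) and without Cdkn2a/Braf/Lkb1 replicate 1 (0.75). The fit on the 7 tissue arrays called 4 of the 31 genes, which were Nrp1, Plxnc1, Sema3a (-0.63) and Sema4a (0.62). Sema3a was called without either day 50 array too. The differences of Sema3d (-2.34, SE 0.83, limma adjusted p = 0.163) and Sema3b (-1.58, SE 0.55, limma adjusted p = 0.152) came to -0.84 and -0.51 without Cdkn2a/Braf melanoma replicate 2. Without replicate 1 they came to -3.84 and -2.66 and were called. Among the partners Pgf, a placental VEGF relative, was lower by -0.82 (SE 0.12, limma adjusted p = 0.0091). Cd72, a B cell receptor for Sema4d, was higher by 1.17 (SE 0.20, limma adjusted p = 0.0167), and Crmp1, a cytoskeletal mediator of the Sema3a response, by 0.84 (SE 0.15, limma adjusted p = 0.0179). Without Cdkn2a/Braf melanoma replicate 2 all 3 calls ended, at -0.87, 1.04 and 0.72, and the Crmp1 call also ended without Cdkn2a/Braf/Lkb1 replicate 2 (0.66). Macrophage markers were higher with Lkb1 loss at a median of 0.89, with 1 of 8 called.

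Melanomas and proliferations differed in 19 of the 31 genes, with Sema3a, Sema7a, Sema6d and both neuropilins higher in the melanomas and Sema3e and Plxnb1 lower. These groups differ in labelled genotype as well as lesion type, and the parts of each cannot be told apart. Of the 31 genes 11 rose and 8 fell (61.3%), where 39% of all genes were called (20.3% higher, 18.7% lower), and the median of the 31 was 0.03 against -0.03 for all genes. All 9 genes with a difference of at least 1 in size were among those called. The 8 that fell did so by 0.35 to 1.40, and Sema3g, Sema4f and Sema4g (-0.41, -0.55 and -0.35) lost their calls with a common interquartile range (-0.31, -0.20 and -0.27). Sema4a (-0.64, SE 0.23, limma adjusted p = 0.0492) lost it without 9 of the 13 arrays taken singly (-0.68 to -0.58), which were the Cdkn2a/Braf day 19 arrays and all 7 tissue arrays. The Sema4g call ended without Cdkn2a/Braf melanoma replicate 2, Cdkn2a/Braf/Lkb1 replicate 1 or any proliferation array (-0.38 to -0.31). The Sema3g call ended without the same melanoma replicate 2 or proliferation replicates 1 or 3 (-0.38 to -0.34).

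Of the 61 partner genes 23 rose and 7 fell in the melanomas (49.2%, beside 39% of all genes). Itga1, an integrin subunit that pairs with beta-1 in the Sema7a receptor, rose by 3.21 (SE 0.31, limma adjusted p = 6.6e-05), and Nrcam, an adhesion molecule that partners neuropilins, rose by 2.88 (SE 0.32, limma adjusted p = 0.00015). Dpysl3, a collapsin response mediator, rose by 1.64 (SE 0.33, limma adjusted p = 0.00343), and Tiam1, a Rac exchange factor, fell by 1.79 (SE 0.17, limma adjusted p = 5.26e-05). Among plexin effectors 11 of 30 rose and 2 fell. Keratinocyte markers fell in 8 of 8 and melanocyte markers in 9 of 12. Endothelial markers rose in 5 of 8 and macrophage markers in 4 of 8, and the part of these lists was not tested.

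Set against sorted cells of the same labelled genotype, Cdkn2a/Braf melanoma had higher Sema3a, Sema7a, Nrp1 and Nrp2 and lower Plxnc1. These 2 comparisons share the melanoma arrays, and in both, tissue against sorted cells and lesion against melanocytes cannot be told apart. Against day 19 cells 7 of the 31 genes rose and 5 fell (38.7%), where 12.6% of all genes were called (7.17% higher, 5.46% lower), with a median of 0.03 against -0.04 for all genes. Fibroblast markers were higher in 8 of 8 (median 3.51), endothelial markers in 5 of 8 (median 1.27) and macrophage markers in 4 of 8 (median 1.84). T cell markers were higher in 2 of 6 (median 0.27). Melanocyte markers were lower in 11 of 12, and the part of these lists was not tested. Plxna4 was lower by -2.10 (SE 0.22, limma adjusted p = 0.000155). Smaller calls for Sema3f (0.56), Sema4c (-0.53) and Sema6a (-0.81) each ended without either day 19 array or Cdkn2a/Braf melanoma replicate 2. For Sema3f and Sema4c this held also without melanoma replicate 1 or any proliferation array, and for Sema3f without each Cdkn2a only and Cdkn2a/Braf/Lkb1 array too. The values ranged from 0.51 to 0.62 for Sema3f, from -0.63 to -0.43 for Sema4c and from -0.89 to -0.68 for Sema6a.

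Against day 50 cells 7 rose and 5 fell (38.7%), where 32.4% of all genes were called (15.5% higher, 16.9% lower), with a median of -0.08 against -0.15 for all genes. Macrophage markers were higher in 8 of 8 (median 2.36) and fibroblast markers in 4 of 8. Melanocyte markers were lower in 11 of 12 (median -3.14), Schwann cell markers in 4 of 5 (median -1.09) and keratinocyte markers in 4 of 8 (median -2.50), and the part of these lists was not tested. With quantile normalization 6 rose and 10 fell, and with a common interquartile range 7 rose and 9 fell. Plxnb2 rose by 1.90 (SE 0.30, limma adjusted p = 0.00182), and Sema6d differed by 0.56 (SE 0.20, limma adjusted p = 0.0507), turning to -0.14 with a common interquartile range. Sema3d rose by 2.57 (SE 0.83, limma adjusted p = 0.0396), but by 1.07 and not called without melanoma replicate 2, and by 4.08 without melanoma replicate 1. That call ended without 9 single arrays (1.07 to 2.57), the day 19 and proliferation arrays, day 50 replicate 2 and melanoma replicate 2. The dim genes Sema4f (-0.64), Sema4g (-0.49), Sema5b (-0.48) and Sema6c (-0.54) fell. Each of these calls ended without melanoma replicate 2, and without day 50 replicate 1 or, for Sema6c, replicate 2 (-0.57 to -0.30 over all such cases). Those of Sema4g, Sema5b and Sema6c ended without melanoma replicate 1 too, and that of Sema6c without either day 19 array. Of the 61 partners 10 rose and 8 fell against day 19 cells (29.5%, beside 12.6% of all genes). Against day 50 cells 17 rose and 6 fell (37.7%, beside 32.4% of all genes). Itga1 rose in both, by 4.68 (SE 0.41, limma adjusted p = 4.95e-05) and 3.67 (SE 0.41, limma adjusted p = 0.000264).

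Of the 31 genes 22 were called in at least 1 of the 4 comparisons within sorted cells or within tissue, and 24 in at least 1 of all 6. These are 71% and 77.4% of the 31, beside 51.6% and 59.8% of all genes. The 7 called in none were Sema3b, Sema3c, Sema4b, Sema6b, Plxna1, Plxna3 and Plxnb3.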

How the data were processed

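RNA from 13 samples was hybridised to Affymetrix whole-transcript arrays after amplification with NuGEN reagents, per the labels' protocols. The authors deposited a table of intensities that is not in log units (3.35 to 17698, array medians 68.3 to 80.5), made with RMA per the submitters' processing notes; its version, the genome build and the step from log2 to linear values are not given in the sources used here. From these, log2(intensity + 1) was computed. Of 34760 probe sets 21640 name 1 gene, 1321 several (left out) and 11799 are unlisted in the platform table, giving 19937 genes; for 954 genes with several probe sets the one with the highest mean was kept. All 31 genes were matched by symbol.

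A model with a mean for each of the 6 groups was fitted over all 13 arrays by limma 3.58.1 (R 4.3.3), with 7 residual and 3.08 prior degrees of freedom. Its p-values are two-sided, adjusted by Benjamini and Hochberg's method across the 19937 genes, and the threshold was 0.05. Tables, motif searches and plots used Python 3.11.15, pandas 2.3.3, numpy 2.4.6 and matplotlib 3.10.9. The fit was tested on simulated data in which all arrays of a gene had the same spread. That test does not cover the wider spread of the day 50 replicates. The 31 genes, the partner and marker lists and the comparisons were chosen with earlier results of these data known. Every one of the 31 may be named, with values on each array where a called difference within 1 material is at least 1 in size; partner genes are named where called and among the 4 largest of a comparison. Alternatives were other scalings, probe set means, a filter on dim genes (above 6 on 2 arrays), a pseudocount of 16, an intensity trend with robust moderation, fits within 1 material, the replicate number as a block, and leaving out each array. Where this leaves 1 array in a group, it is assumed to vary like the other groups. No 2 arrays held identical values.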

Additional observations from a re-analysis of the deposited data

How the results depend on the processing

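None of the calls described for the 31 genes changed sign under any alternative. Called under every alternative were 3 of 10 genes at day 50 against day 19 (Plxna4, Sema6d and Nrp1), 13 of 19 for melanomas against proliferations, 7 of 12 against day 19 cells and 6 of 12 against day 50 cells, and 0 of the single calls for the Braf allele and for Lkb1 loss. Differences that were not called turned sign for Sema6a at day 50 (0.12) and Sema6d in melanoma against day 50 cells (-0.14) with a common interquartile range, and without Cdkn2a/Braf melanoma replicate 2 for Sema3b and Sema3d against proliferations and Sema3b against day 19 cells. Leaving out each array in turn gave -0.0197 to 1.06, -0.0341 to 1.47 and -0.46 to 1.69 for these. The count of the 31 genes called fell from 10 to 4 at day 50 when only sorted arrays were fitted. For the Braf allele it fell from 1 to 0 under median centring, quantile normalization, a common interquartile range, the intensity trend and the sorted arrays alone. For Lkb1 loss it was 0 with quantile normalization, 2 with a pseudocount of 16 and 4 in the tissue arrays alone.

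Leaving out each array in turn gave 5 to 10 at day 50, 0 to 1 for Braf, 0 to 4 for Lkb1, 14 to 23 for melanomas against proliferations, 7 to 12 against day 19 cells and 8 to 14 against day 50 cells. The replicate numbers did not pair the samples (correlations of deviations from -0.117 to 0.06), and with the replicate number as a block the counts were 9, 0, 0, 14, 10 and 11 in that order. The counts of all genes called (5095, 58, 510, 7766, 2518 and 6462) ranged from 1835 to 5835, 10 to 164, 135 to 1154, 5400 to 9499, 1377 to 3557 and 2761 to 6714 when leaving out arrays. Quantile normalization gave 3066 at day 50, 294 for Lkb1 and 5070 for melanomas against proliferations, a common interquartile range 36 for Braf and 319 for Lkb1, 1 material alone 1502, 1 and 794 in the first 3 comparisons, and the block 21 for Braf and 259 for Lkb1. Over all genes 2211 rose and 2884 fell at day 50, against 1034 and 3263 after median centring. For melanomas against proliferations the split was 4042 and 3724, against 4850 and 2562 after median centring and 5528 and 2734 with a common interquartile range, and against day 19 cells 1430 and 1088, against 1210 and 1542 after median centring. For Lkb1 loss it was 364 and 146, against 189 and 130 with a common interquartile range. That scaling moved the median of all genes from 0.17 to -0.05 at day 50, from -0.03 to 0.15 for melanomas against proliferations and from -0.04 to -0.15 against day 19 cells, where median centring gave -0.14. The cause of these changes was not tested. Low signal limits the dim genes Sema4f, Sema6c and Plxnb3, and background was not measured.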
